A study of Mus musculus with 6 samples.

Results

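The normal passage from the oocyte to the 2-cell (2C) embryo was followed in 1 table of group means, in which control 2C embryos stand beside control oocytes. Its members are all genes that the authors' own flag marks as tested, 14208 of 47728 gene rows. Both control groups carry KDM1A and were taken over from an earlier study: the submitters describe them as wild type, and the study's table legend calls the embryos Kdm1a Zp3 M+Z+ and the oocytes Kdm1a fl/fl. The study's main text and figure legend call the embryos Kdm1a fl/fl M+Z+ instead. Zp3 stands for the Zp3-Cre line, which acts in growing oocytes, and M+Z+ embryos are described for another Cre line of the study as the offspring of control mothers without Cre, so that both a maternal and a zygotic supply of KDM1A is present. The oocytes are described as ovulated. Superovulation is given as the way to collect enough embryos for the study's RNA-seq, without naming these control libraries. The study's Kdm1a fl/fl mice are of a mostly C57BL/6 background. For these control libraries themselves, age, collection time and the number of libraries and of pooled cells were not given in the sources used here. None of the 6 libraries of Kdm1a mutant oocytes and embryos was used. Every value is the authors' mean over a group, so no SD, n or p-value can be given, and statements below rest on size alone: a gene is called higher or lower where the ratio of (mean + 1) in 2C embryos to that in oocytes is at least 4-fold, a log2 ratio of 2 or more in size. Values are normalized read counts that are not divided by gene length, so each level is compared between the groups for the same gene, and a ranking of genes by their mean ranks signal and not the number of transcripts.

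A full-grown oocyte stops transcribing and lives on stored messenger RNA. After meiotic maturation and fertilization much of this maternal RNA is deadenylated and degraded, while the embryo's own genome is switched on, in the mouse with a minor wave in the zygote and a major wave in the 2C embryo. Some maternal messages carry cytoplasmic polyadenylation elements in their 3′ untranslated region, which keep them masked until maturation and then allow their tail to be extended. The first zygotic transcripts include those of multicopy families such as Zscan4, Tdpoz and Usp17l that are found nearly nowhere else in development, followed by genes for ribosomes, RNA processing and metabolism.

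The columns of the table are named only by letters, and their identity was checked against the other deposited tables. Across the 14208 genes the column taken as control oocytes had a Spearman correlation of 0.9998 with the named control oocyte column of another table, against 0.597 for the column taken as 2C embryos. The table's own name puts control 2C embryos against control oocytes, but the legend printed with the study assigns the letters the other way round. With the legend's order every direction given here would be reversed. The column taken as 2C embryos had a Spearman correlation of 1, after rounding, with column b of the control against mutant 2C table. The legend of that table gives this letter to the mutants. The column taken as oocytes had a correlation of 0.853 with column a of the same table and 0.596 with its column b. The paper describes mutant 2C embryos as closer to control oocytes than control 2C embryos were. The identity of the 2C column rests on the name of the table, the oocyte column and this order of similarity. The oocyte growth factor Gdf9 was at 636 in 2C embryos and 34014 in oocytes, and the 2C gene Zfp352 at 3224 in 2C embryos and 0.07 in oocytes. Reads that fell on several gene loci were weighted down by the square of the number of loci, so members of multicopy families and genes with many pseudogenes have low values and may share reads. Gapdh, for example, which has many processed copies in the mouse genome, was at 5.81 in 2C embryos and 7.76 in oocytes and was not tested. The values are scaled to a median and the number of cells per library is not given, so fewer cells and less RNA per cell cannot be told apart.

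About 1 tested gene in 2 lay more than 4-fold apart between the stages. Of the 14208 genes, 3692 were at least 4-fold higher in 2C embryos (26.0%) and 3354 at least 4-fold lower (23.6%), 49.6% together, and 7162 lay within 4-fold. The log2 ratio had a median of -0.01, quartiles of -1.88 and 2.12, and ran from -10.73 to 14.43. The upper tail was the longer one: 772 genes were 64-fold or more higher in 2C embryos and 270 were 64-fold or more lower. Many of these genes were near absence at 1 stage. Of the 3692 higher genes, 1844 had a mean under 10 in oocytes, and of the 3354 lower genes, 1298 had a mean under 10 in 2C embryos. A gene near absence at 1 stage passes a filter on low values mainly through the other, where it is high, so the counts describe the table and do not measure how often genes differ. At the other end, 1038 higher genes had a mean of at least 50 in oocytes, and 1363 lower genes a mean of at least 50 in 2C embryos. A mean of 0 was listed for 200 tested genes in 2C embryos and for 420 in oocytes; for these no fold is given.

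**Figure D1:**
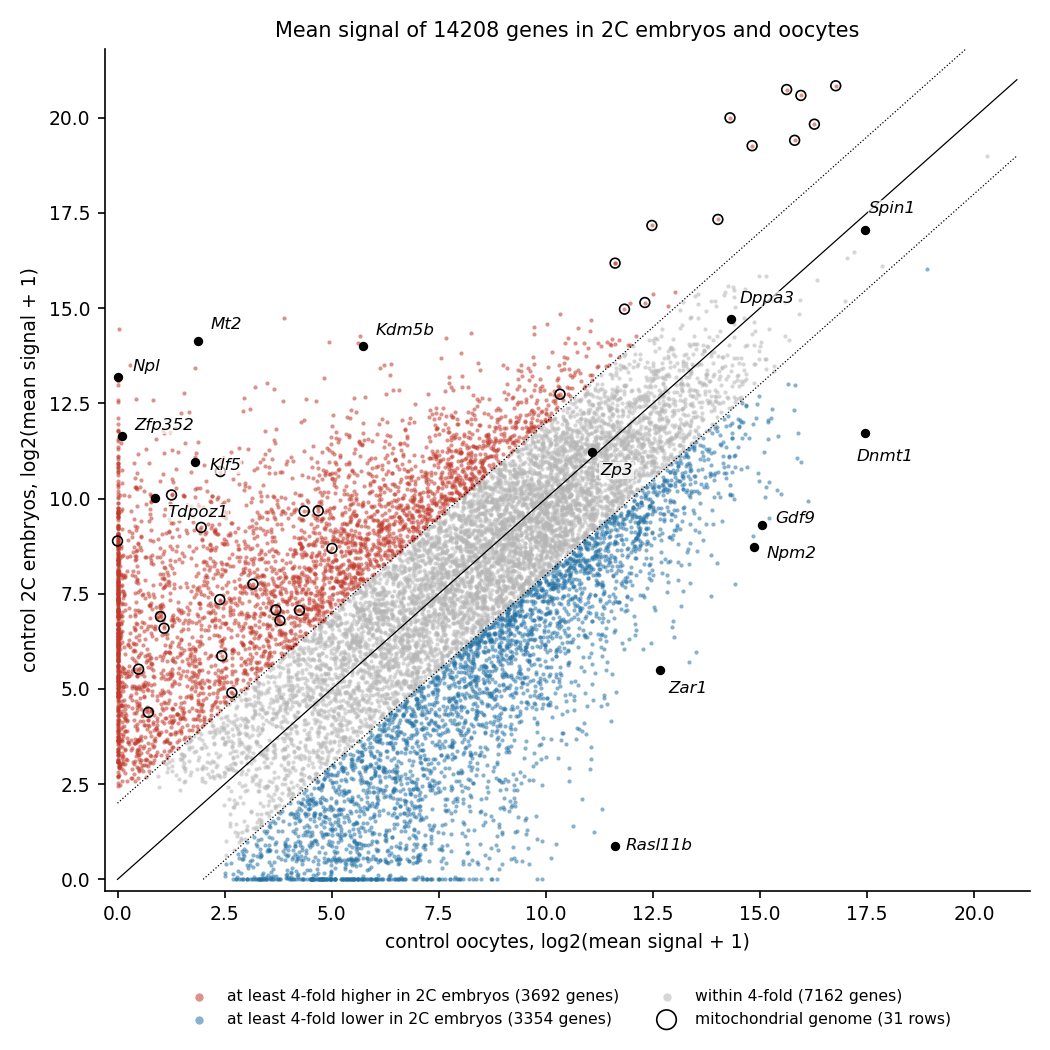
Log2 of (mean signal + 1) in control 2C embryos (vertical axis) against control oocytes (horizontal axis) for the 14208 tested genes, with the line of equality and dotted lines at 4-fold. The 3692 genes at least 4-fold higher in 2C embryos reach down to 0 on the oocyte axis, the 3354 lower genes reach down to 0 on the 2C axis, and the 31 mitochondrial rows (open circles) all lie above the upper dotted line.

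Outside chromosome MT, the genes lower by at least 4-fold held 5.08% of the summed signal in 2C embryos and 34.5% in oocytes, while those higher by at least 4-fold held 26.9% in 2C embryos and 1.95% in oocytes. Genes within 4-fold made up the bulk at both stages, 68.1% in 2C embryos and 63.6% in oocytes. Among the 100 genes with the highest oocyte means off chromosome MT, leaving out the ribosomal RNA precursor row Rn45s, 46 were at least 4-fold lower in 2C embryos and 0 higher. Among the 100 with the highest 2C means, 33 were higher and 1 was lower. The 33 include an Atpase6 row on chromosome 1, at 74424 in 2C embryos and 3142 in oocytes. The row of that name on chromosome MT was at 74399 in 2C embryos and 3142 in oocytes. The part of mitochondrial reads in rows off chromosome MT was not tested. Messages with high means at both stages included Spin1, which encodes the histone reader spindlin, at 136684 in 2C embryos and 178399 in oocytes. Npm1, the nucleolar protein nucleophosmin, was likewise high at both, at 81129.5 in 2C embryos and 135102 in oocytes. Genes picked for a high level at 1 stage lean towards that stage by the choice itself, and these counts are given as a description.

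The genes with the largest positive ratios were abundant in 2C embryos, with traces or nothing in oocytes. Timd2, a cell-surface receptor that binds ferritin, had a mean of 11748 in 2C embryos and 0.23 in oocytes (log2 ratio 13.22) and is annotated on the minus strand of GRCm38 chromosome 11, from base 46668960 to base 46707061. Ctsc, the lysosomal peptidase cathepsin C, was at 6319.9 in 2C embryos and 0.347 in oocytes (log2 ratio 12.20). Both metallothionein genes, whose small cysteine-rich products bind zinc and copper, belong here. Mt2 had means of 18118 in 2C embryos and 2.67 in oocytes, and its neighbour Mt1 means of 11063 in 2C embryos and 2.49 in oocytes, with log2 ratios of 12.27 and 11.63. In 2C embryos Npl, which breaks down sialic acid, was at 9351, Kcnk6, a potassium channel, at 4407, Rpp25, a subunit of RNase P, at 3943, and Tomm5, a part of the mitochondrial import pore, at 3584, and all 4 were listed at 0 in oocytes. Exoc3l2, Pramel7, Ubtfl1 and Crxos1 had 2C means of 6165, 5924, 3494 and 3513 and were listed at 0 in oocytes too. The homeobox gene Obox6 and the zinc finger gene Zfp352, also among the largest ratios, are described with the early 2C genes.

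At the lower end stood messages with substantial means in oocytes and next to nothing in 2C embryos. Rasl11b, a Ras-like small GTPase annotated on the plus strand of GRCm38 chromosome 5 between bases 74195286 and 74199481, had means of 0.837 in 2C embryos and 3125 in oocytes, the most negative log2 ratio of the table (-10.73). Some of these genes are better known from striated muscle. Nrap, an anchoring protein of myofibrils, was at 1.36 in 2C embryos and 2237 in oocytes, Casq2, a calcium store protein, at 1.01 in 2C embryos and 967 in oocytes, and Chrnd, a subunit of the muscle acetylcholine receptor, at 0.777 in 2C embryos and 767 in oocytes. The myosin heavy chain gene Myh2 was listed at 0 in 2C embryos and at 431 in oocytes. Others act in transcription and signalling. The elongation factor gene Tcea3 was at 0.91 in 2C embryos and 1204 in oocytes, and Rassf1, a Ras-association protein, at 1.08 in 2C embryos and 889.5 in oocytes. Oas3, Pstpip1 and Fam83g had log2 ratios of -9.58, -9.21 and -8.73. Pabpn1l, the poly(A)-binding protein of oocytes and early embryos, Steap4, a metalloreductase, and the pepsinogen gene Pga5 were listed at 0 in 2C embryos, with oocyte means of 420.2, 955 and 886.

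Genes that build the oocyte and its coat were mostly lower in 2C embryos. Of 8 tested genes of the egg coat and egg surface, 6 were at least 4-fold lower and 0 higher, with a median log2 ratio of -3.40, beside -0.01 for all tested genes and a background of 23.6% lower. Folr4, the egg receptor for the sperm protein IZUMO1, was at 23.3 in 2C embryos and 2747 in oocytes (log2 ratio -6.82). Astl, the protease that hardens the coat after fertilization, was at 34.3 in 2C embryos and 2171 in oocytes (log2 ratio -5.94). The zona pellucida genes Zp1, Zp2 and Zp3 differed in extent: Zp1 was at 349 in 2C embryos and 5650.0 in oocytes, Zp2 at 685 in 2C embryos and 4733 in oocytes, and Zp3 at 2376 in 2C embryos and 2147 in oocytes, with log2 ratios of -4.01, -2.79 and 0.15. Zp3 lay within 4-fold, and its log2 ratio turns negative when both columns are scaled to 1 sum. Of 9 oocyte transcription factor genes, 1 was higher and 8 were lower (median log2 ratio -2.79), of which 5 stayed past 4-fold with columns scaled to 1 sum off chromosome MT. Figla, which switches on the zona genes, was at 0.473 in 2C embryos and 42.8 in oocytes, Nobox, a homeobox gene of folliculogenesis, at 753 in 2C embryos and 5217 in oocytes, and the homeobox gene Obox5 at 1021 in 2C embryos and 21635 in oocytes. The higher one was Taf4b, a TFIID subunit of the gonads, at 6789 in 2C embryos and 313 in oocytes (log2 ratio 4.44).

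Signals between the oocyte and its follicle followed the same direction. Of 11 tested growth factor and receptor genes, 7 were lower (63.6%) and 0 higher, with a median log2 ratio of -3.12. Over all tested genes 23.6% were lower and 26.0% higher. Gdf9 and Bmp15, which encode factors secreted by the oocyte to its granulosa cells, differed in extent. Gdf9 had a log2 ratio of -5.74 from the means given above, and Bmp15 one of -3.12 from 4295 in 2C embryos and 37230.0 in oocytes. Gja4, the gap junction protein that joins the oocyte to the cumulus, was at 36.3 in 2C embryos and 1147 in oocytes. Kit, the receptor of stem cell factor, lay just inside the bound at 2697 in 2C embryos and 10721 in oocytes (log2 ratio -1.99). Gpr3, whose receptor holds the oocyte in meiotic arrest, was the only member of the list with a log2 ratio above 0, at 1538 in 2C embryos and 619 in oocytes (log2 ratio 1.31).

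**Figure D2:**
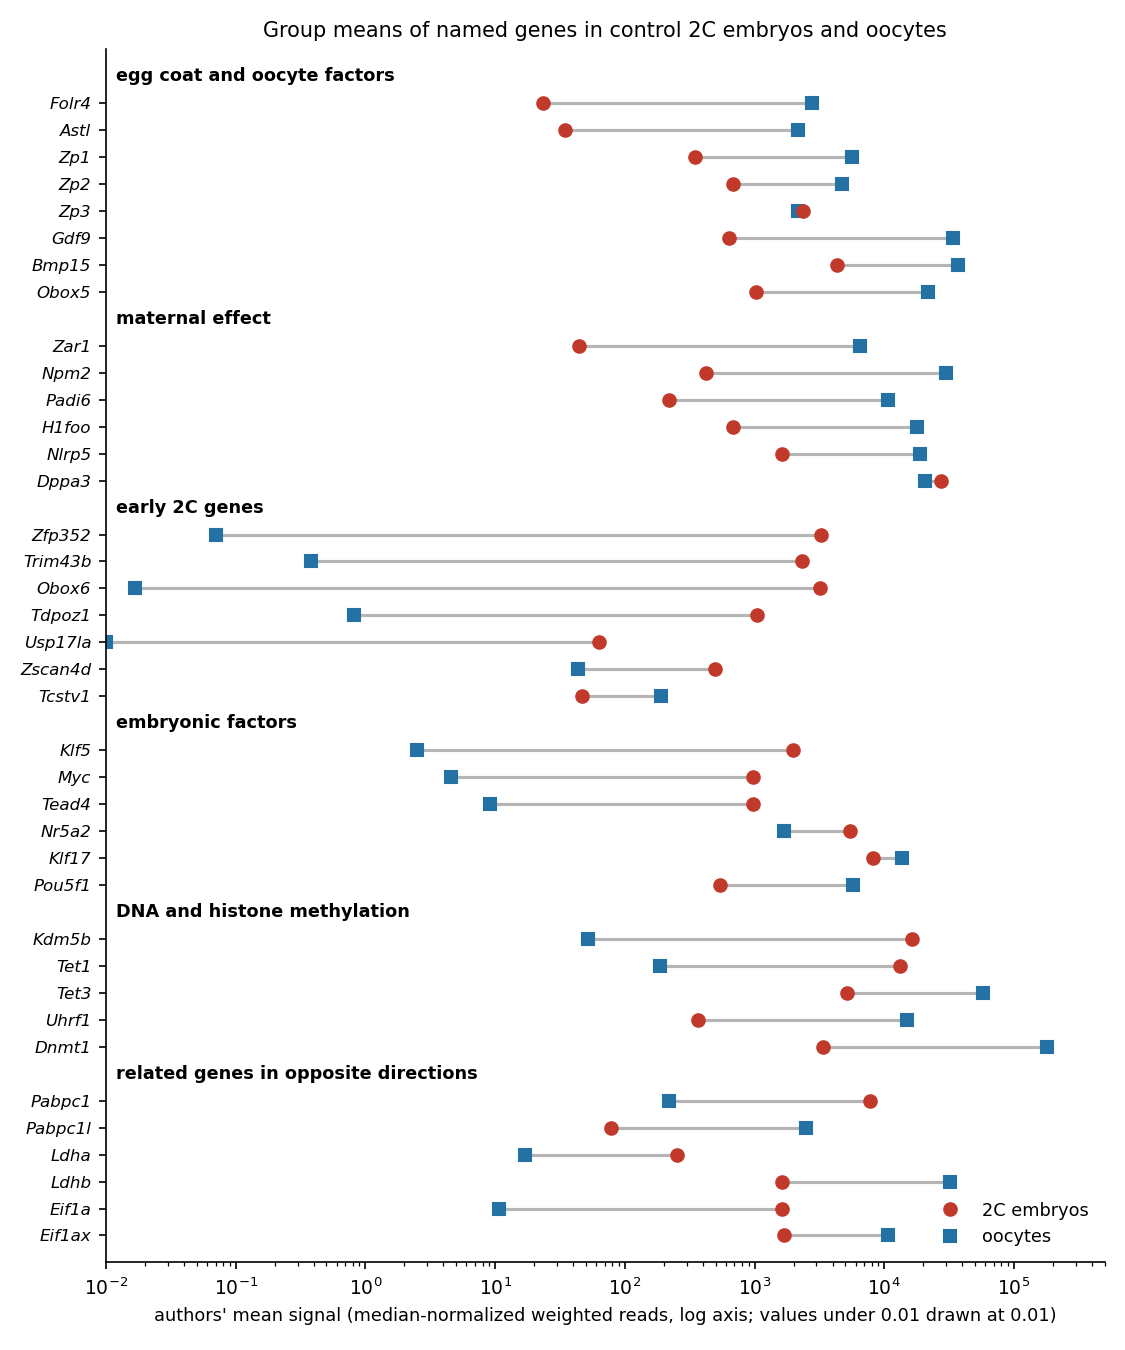
The authors' mean signal of 38 named genes in control 2C embryos (circles) and control oocytes (squares) on a log axis, grouped by role, with means under 0.01 drawn at 0.01. Oocyte and maternal effect genes lie to the left in 2C embryos except Zp3 and Dppa3, early 2C genes lie to the right except Tcstv1, and several pairs of related genes run in opposite directions.

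Genes whose maternal product is needed by the early embryo were lower in 2C embryos in part and near their oocyte level in part. Of 17 tested maternal effect genes, 9 were at least 4-fold lower and 1 higher (median log2 ratio -3.48). These are 52.9% and 5.88%, beside 23.6% lower and 26.0% higher over all tested genes. Zar1, which binds maternal messages, was the lowest at 44.4 in 2C embryos and 6523 in oocytes (log2 ratio -7.17). Npm2, the nucleoplasmin that remodels sperm chromatin, was at 425 in 2C embryos and 29736 in oocytes, and Padi6, needed for the cytoplasmic lattices, at 218 in 2C embryos and 10639.5 in oocytes. Their log2 ratios were -6.13 and -5.60. In the subcortical maternal complex, Nlrp5 was at 1624 in 2C embryos and 18998 in oocytes (log2 ratio -3.55), whereas Zbed3 had a log2 ratio of -0.73 and its partner Ooep one of -1.74. Dppa3, which protects the maternal genome from demethylation, was near its oocyte level, at 27104 in 2C embryos and 20566 in oocytes. The higher member was Trim28, a corepressor of endogenous retroviruses, at 13775 in 2C embryos and 1976 in oocytes (log2 ratio 2.80). Zbed3 was named after its value was seen.

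Oocyte gene families with clustered copies were lower too. Of 12 tested Nlrp genes, 8 were lower and 0 higher (median log2 ratio -2.91), from Nlrp9b at 1992 in 2C embryos and 63959 in oocytes (log2 ratio -5.00) to Nlrp9a, its relative, with a log2 ratio of -0.19. Of 23 tested genes of the oogenesin, Tcl1 and Fbxw families, 15 were lower and 0 higher (median log2 ratio -2.67). The shares of lower genes were 66.7% for Nlrp and 65.2% for these families. Over all tested genes 23.6% were lower and 26.0% higher. Fbxw25 was at 24.1 in 2C embryos and 1096 in oocytes, and Oog2 at 339 in 2C embryos and 7003 in oocytes. Oog3 was the only member of that list with a positive ratio, at 15067 in 2C embryos and 13158 in oocytes (log2 ratio 0.20, negative when both columns are scaled to 1 sum). Close copies in these families share reads under the authors' weighting, so the values of single members are uncertain.

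Genes that store, mask and translate maternal messages lay on both sides. Of 25 tested genes, 3 were higher and 8 lower, beside 26.0% higher and 23.6% lower over all tested genes, with a median log2 ratio of -0.52. Lower were Cpeb1, which binds the cytoplasmic polyadenylation element, at 227 in 2C embryos and 3996 in oocytes, Patl2, a translational repressor, at 16.5 in 2C embryos and 668 in oocytes, and the oocyte cap-binding protein Eif4e1b at 1663 in 2C embryos and 16533 in oocytes. More widely expressed factors were among the lower ones too, with log2 ratios of -3.16 for Igf2bp2 and -2.52 for Stau1, both RNA-binding proteins. Dazl and Ybx2, RNA-binding proteins of germ cells, were within 4-fold, with log2 ratios of -0.28 and 0.35, and the sign of Dazl turns when both columns are scaled to 1 sum off chromosome MT. Higher were Pabpc1, the general poly(A)-binding protein, at 7781 in 2C embryos and 221 in oocytes, Larp1 at 8066 in 2C embryos and 858 in oocytes, and Papd4, a cytoplasmic poly(A) polymerase, at 1959.7 in 2C embryos and 291 in oocytes.

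Genes that remove maternal messages were mostly within 4-fold. Of 40 tested genes of deadenylation, decapping, uridylation and the exosome, 8 were higher and 5 lower, with a median log2 ratio of -0.37, and both counts are smaller shares than the 26.0% and 23.6% of all tested genes. Btg4, which brings the CCR4-NOT deadenylase to maternal messages, was at 7121 in 2C embryos and 18755 in oocytes (log2 ratio -1.40), and the deadenylase subunits Cnot6l and Cnot7 had log2 ratios of -1.46 and -0.61. The decapping factor Dcp1a was lower, at 5264 in 2C embryos and 40009 in oocytes (log2 ratio -2.93), while the decapping enzyme Dcp2 was within the bound at -0.62. Of the terminal uridylyl transferases, Zcchc11 was at 713 in 2C embryos and listed at 0 in oocytes, and Zcchc6 was at 1858 in 2C embryos and 2549.5 in oocytes.

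Of the key members of the lists with an annotated 3′ untranslated region of at least 100 bases, 16 of 61 hold the hexamer TTTTAT, a core of the cytoplasmic polyadenylation element, in its last 100 bases. Of the 16, 2 were at least 4-fold higher in 2C embryos, 5 at least 4-fold lower and 9 within 4-fold. Over all tested genes 26.0% were higher and 23.6% lower. The sites of 8 are shown, picked after their values were seen to cover the range of ratios from lower to higher in 2C embryos. The capitals mark the hexamer, each line is 30 bases of GRCm38 read on the gene's strand, and the transcripts are those of GENCODE.
Dnmt1, chr9:20907233-20907262 (-): atgtagTTTTATatgttgtaatatttcttc
Gdf9, chr11:53437860-53437889 (+): ctgtggTTTTATgtgacggaagaataaact
H1foo, chr6:115950163-115950192 (+): tgaagcTTTTATtgtctaataagctgtcac
Dcp1a, chr14:30526991-30527020 (+): cctaaaTTTTATatgtttgcaaatatattt
Btg4, chr9:51119803-51119832 (+): atccctTTTTATgtctttttaaaagtttga
Wee2, chr6:40466784-40466813 (+): tgtaaataaagaTTTTATcttatccaaaga
Ago2, chr15:73095920-73095949 (-): tggataTTTTATaaagttattttgtatggt
Myc, chr15:61990274-61990303 (+): aattttTTTTATttaaagacattttcattt
The first 4 of these genes were at least 4-fold lower in 2C embryos, the next 2 within 4-fold and the last 2, Ago2 and Myc, at least 4-fold higher, with log2 ratios of 2.48 and 7.43. Dnmt1 had a log2 ratio of -5.73 and H1foo, the oocyte linker histone, one of -4.72, and Wee2, the kinase that restrains CDK1 in oocytes, one of -0.92. Across all genes the hexamer stood in the last 100 bases of 13.3% of 2239 higher, 15.4% of 2470 lower and 16.0% of 5389 genes within 4-fold whose annotated 3′ untranslated region has at least 100 bases. Only the strand of the transcript was searched. A match is a description of these letters and no evidence that the element is used.

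The early 2C genes had the highest median of all lists with at least 3 tested members. Of 41 tested rows, 35 were at least 4-fold higher in 2C embryos and 3 lower, with a median log2 ratio of 5.85, against 26.0% higher and a median of -0.01 over all tested genes. A further 14 rows of the list were not tested. Like the others, the list was chosen with earlier results of these data known, so these counts are a description. Zfp352, a zinc finger gene without introns in its coding part, was at 3224 in 2C embryos and 0.07 in oocytes (log2 ratio 11.56). The Trim43 genes, which encode RING finger proteins, reached 3445 for Trim43a and 2314 for Trim43b in 2C embryos, with 1.32 and 0.383 in oocytes. Tdpoz1, a MATH and BTB domain gene, was at 1035 in 2C embryos and 0.82 in oocytes (log2 ratio 9.15), and the deubiquitinase gene Usp17la at 63.2 in 2C embryos and 0.00667 in oocytes. Pramel6, Spz1, Tdpoz2 and Usp17lb had 2C means of 1301, 689, 544 and 489 and were listed at 0 in oocytes. The Zscan4 genes, which act at telomeres, were present at a lower level in oocytes also: Zscan4d was at 495 in 2C embryos and 43.3 in oocytes, and Zscan4c at 57.7 in 2C embryos and 9.19 in oocytes. Their log2 ratios, 3.49 and 2.53, were among the smaller ones of the list.

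Of the 41 tested rows, 4 had a ratio below 0. Tcstv1 was at 46.7 in 2C embryos and 191 in oocytes (log2 ratio -2.01), while its relative Tcstv3, which was not tested, was at 545.7 in 2C embryos and 12.4 in oocytes. Zfp750 was at 776 in 2C embryos and 7839 in oocytes, and Gm4981 at 0.467 in 2C embryos and 193 in oocytes, the lowest of the list. Dux, the homeobox gene of the minor wave, was not tested, with means of 0.933 in 2C embryos and 0.17 in oocytes. The Obox genes lay on both sides: Obox6 was at 3166 in 2C embryos and 0.0167 in oocytes and Obox3 at 1994 in 2C embryos and 78.8 in oocytes, whereas Obox1, Obox2 and Obox5 had log2 ratios of -3.94, -4.29 and -4.40. Trim43a, Spz1, Tdpoz2, Usp17lb, Pramel6 and Gm4981 lie outside the rule for named genes and were named after their values were seen.

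The promoters of 4 of these genes are shown as the 250 bases before the RefSeq start (GRCm38.p6), read 5′ to 3′ on the gene's strand, the first pair for a motif that recurs in Zfp352, the second to show how alike copies of the Zscan4 family are. In the first pair the capitals mark TAATCC on either strand, the core that homeodomains of the OTX and CRX kind bind. In the second pair they mark TATAAA, the TATA box.
Zfp352, chr4:90218570-90218819 (+): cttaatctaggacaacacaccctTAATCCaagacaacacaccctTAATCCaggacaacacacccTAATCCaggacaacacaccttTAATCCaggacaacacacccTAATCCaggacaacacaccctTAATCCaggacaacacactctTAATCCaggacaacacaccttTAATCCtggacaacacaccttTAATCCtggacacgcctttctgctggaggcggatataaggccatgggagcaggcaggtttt
Tdpoz1, chr3:93676284-93676533 (-): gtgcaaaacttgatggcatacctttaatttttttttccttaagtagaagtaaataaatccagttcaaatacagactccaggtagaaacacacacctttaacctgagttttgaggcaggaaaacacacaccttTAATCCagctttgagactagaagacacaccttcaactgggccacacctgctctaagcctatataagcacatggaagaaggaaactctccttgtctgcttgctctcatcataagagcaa
Zscan4c, chr7:11005495-11005744 (+): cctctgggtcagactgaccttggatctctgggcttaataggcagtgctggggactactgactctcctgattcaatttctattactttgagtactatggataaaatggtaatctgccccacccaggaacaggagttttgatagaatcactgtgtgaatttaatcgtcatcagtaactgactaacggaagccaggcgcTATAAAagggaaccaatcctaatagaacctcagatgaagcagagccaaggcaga
Zscan4d, chr7:11166149-11166398 (-): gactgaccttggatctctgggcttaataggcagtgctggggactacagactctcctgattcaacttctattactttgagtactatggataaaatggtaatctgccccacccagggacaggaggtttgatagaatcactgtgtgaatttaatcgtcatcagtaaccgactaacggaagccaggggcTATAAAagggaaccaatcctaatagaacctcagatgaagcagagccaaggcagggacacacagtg
The Zfp352 window is a tandem repeat with 9 copies of TAATCC, more than in any other of the 8873 tested genes with a promoter in the table, where the next highest number was 4. It was singled out after its sequence was seen. The Zscan4c and Zscan4d windows were identical at 232 of 239 aligned bases (97.1%), so reads from these loci can hardly be told apart where the transcripts are as alike. Over all genes, TAATCC was found in 134 of 2000 promoters of higher genes (6.70%), 108 of 2145 of lower genes (5.03%) and 218 of 4728 within 4-fold (4.61%), and in 6.37% of all 27025 RefSeq promoters of that length. Among genes at least 64-fold higher it was in 44 of 437 (10.1%), and among genes at least 64-fold lower in 8 of 174 (4.60%). TATAAA was in 7.05% of promoters of higher genes, 7.32% of lower genes, 5.90% of genes within 4-fold and 13.0% of all RefSeq promoters. Several further motifs were counted in the same windows, of which only the ETS site is reported below. A match of letters is not a bound site, and both motifs were counted on both strands and apart from each other.

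Of 35 tested regulators of pluripotency and of the first lineages, 18 were higher in 2C embryos (51.4%, beside 26.0% over all tested genes) and 2 lower (5.71%, beside 23.6%), with 15 within 4-fold and a median log2 ratio of 2.17. In all, 13 of the 35 had a ratio below 0. Klf5, a Krüppel-like factor needed for the trophectoderm and inner cell mass, was at 1985 in 2C embryos and 2.48 in oocytes (log2 ratio 9.16), on chromosome 14 of GRCm38 from 99298691 to 99315036 on the plus strand. Myc was at 967 in 2C embryos and 4.6 in oocytes, Klf9 at 1253 in 2C embryos and 7.37 in oocytes, and Tead4, which specifies the trophectoderm, at 975 in 2C embryos and 9.19 in oocytes. Their log2 ratios were 7.43, 7.23 and 6.58. Fgf4, the signal from the later epiblast, was at 271 in 2C embryos and listed at 0 in oocytes. Nr5a2, an orphan nuclear receptor, was already present in oocytes and lay within the bound, at 5437 in 2C embryos and 1671 in oocytes (log2 ratio 1.70). Klf17, a factor abundant in eggs, was at 8123 in 2C embryos and 13758 in oocytes. The 2 lower genes were Pou5f1, which encodes OCT4, at 544 in 2C embryos and 5723 in oocytes, and the RNA-binding gene Lin28a at 432 in 2C embryos and 4692 in oocytes. Sox2 was at 8.63 in 2C embryos and 9.56 in oocytes, and Nanog, not tested, at 51.6 in 2C embryos and 0.72 in oocytes.

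**Figure D3:**
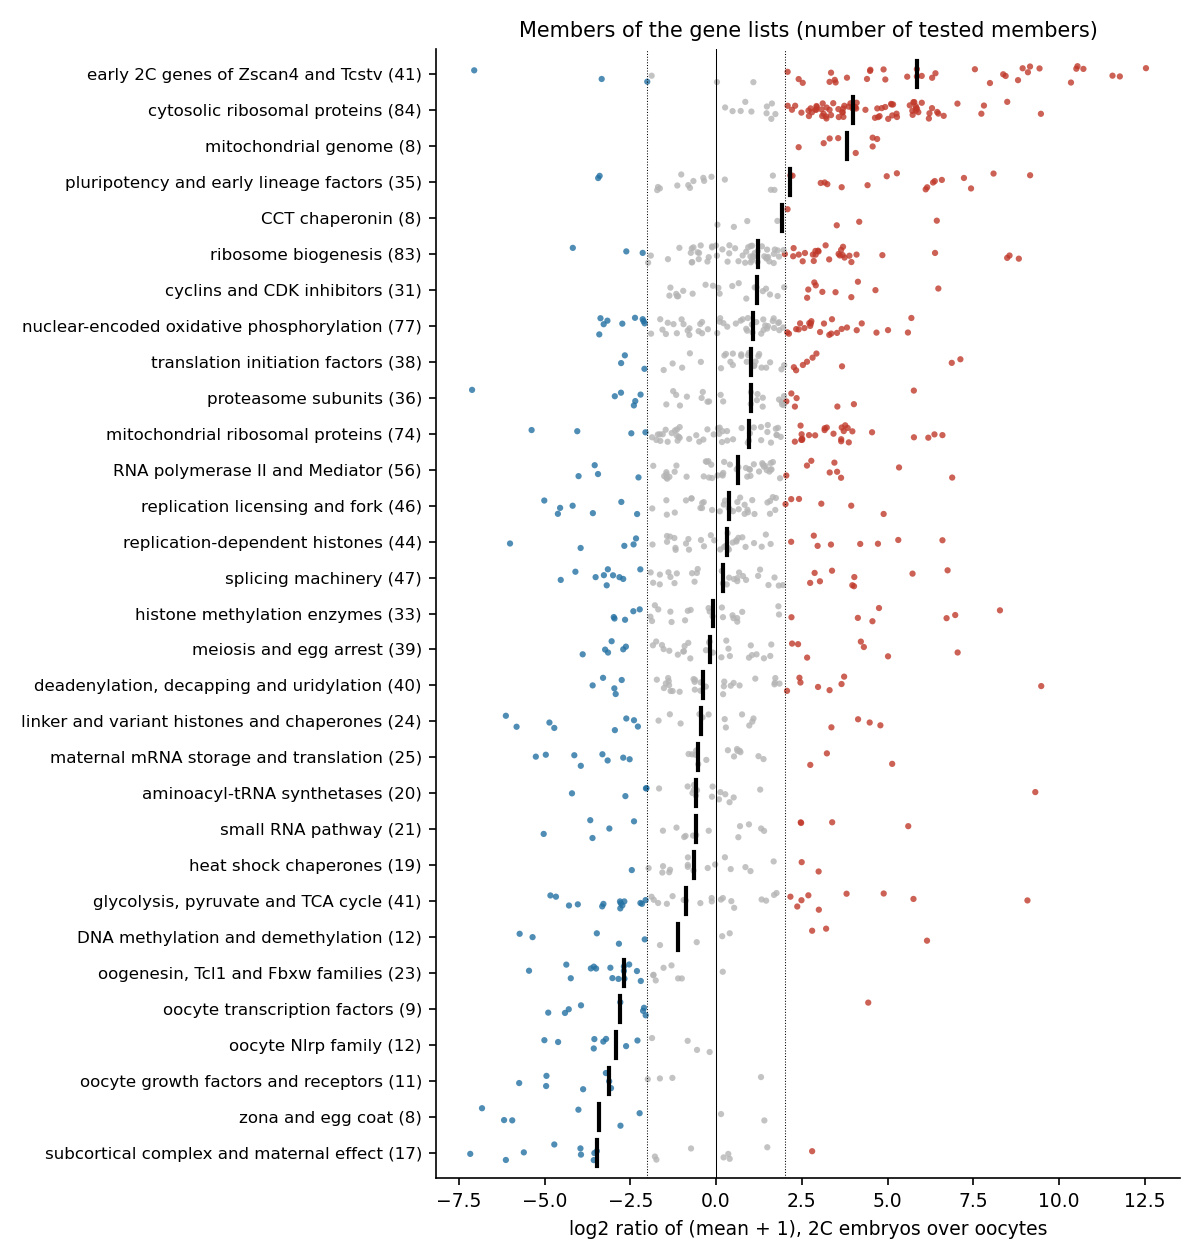
Log2 ratio of (mean + 1), control 2C embryos over control oocytes, of every tested member of 31 gene lists, ordered by median (black bar), with dotted lines at 4-fold and the number of tested members after each name. The early 2C genes (median 5.85) and the cytosolic ribosomal proteins (3.98) lead, and the 6 lists at the bottom, all of oocyte genes, have medians from -2.67 to -3.48.

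Nearly all ribosomal protein genes were higher in 2C embryos. Of 84 tested rows of cytosolic ribosomal proteins, 74 were at least 4-fold higher in 2C embryos (88.1%) and 0 lower. Over all tested genes 26.0% were higher and 23.6% lower. The ribosomal rows had a median log2 ratio of 3.98 and a lowest value of 0.26. Together they held 0.624% of the summed signal in 2C embryos and 0.0906% in oocytes. Rps27 was at 1415 in 2C embryos and 0.997 in oocytes. Rpl41 and Rpl4, which had the highest oocyte means of the list, were within the bound, with log2 ratios of 0.72 and 0.85, and were named after their values were seen. These genes have many processed pseudogenes that take reads under the authors' weighting, and processed pseudogene rows were themselves often higher: 438 of 969 (45.2%) were higher in 2C embryos and 120 (12.4%) lower. The part of shared reads in the ribosomal values was not tested. The ribosomal RNA precursor row Rn45s ran the other way within 4-fold, with 2.03% of the signal in 2C embryos and 5.82% in oocytes.

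Of 83 ribosome biogenesis genes, 28 were higher (33.7%) and 3 lower (3.61%), beside 26.0% and 23.6% over all tested genes, with a median log2 ratio of 1.22. Nop2, an rRNA methyltransferase, was at 2001 in 2C embryos and 4.32 in oocytes, Nol11, needed for transcription of ribosomal DNA, at 2582 in 2C embryos and 6.2 in oocytes, and the box C/D protein Nop56 at 19077 in 2C embryos and 1466 in oocytes. Of the 83, 62 had a log2 ratio above 0 and 21 one below 0. Among the latter were the kinase gene Riok1, at -4.18, and Ncl, which encodes nucleolin, within 4-fold at -1.98. Of 38 translation initiation factor genes, 9 were higher (23.7%, near the 26.0% of all tested genes) and 3 lower (7.89%), with a median log2 ratio of 1.03. Eif1a was at 1628 in 2C embryos and 10.7 in oocytes, while Eif1ax, its X-linked relative, was at 1681 in 2C embryos and 10622 in oocytes. Of 20 aminoacyl-tRNA synthetase genes, 1 was higher (5%) and 4 were lower (20%), with a median log2 ratio of -0.57. Yars was at 632 in 2C embryos and listed at 0 in oocytes, and Sars was at 170.5 in 2C embryos and 3151 in oocytes.

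All 8 subunits of the CCT chaperonin, which folds actin and tubulin, had a log2 ratio above 0, 4 of them past 4-fold (median 1.94), with Cct6a at 7443 in 2C embryos and 85 in oocytes, although the lowest, Cct5 at 0.04, falls below 0 when both columns are scaled to 1 sum. Of 36 proteasome genes, 7 were higher and 6 lower (19.4% and 16.7%, median log2 ratio 1.02), and with columns scaled to 1 sum off chromosome MT 13 were higher. The shares over all tested genes were 26.0% and 23.6%. Psma3 was at 3437 in 2C embryos and 295 in oocytes, and the assembly chaperone gene Psmd10 at 8.05 in 2C embryos and 1251 in oocytes. Of 19 heat shock genes, 2 were higher and 1 lower (10.5% and 5.26%, median log2 ratio -0.66). Hspa1b, known as an early gene of the mouse zygote, was at 173 in 2C embryos and 53.4 in oocytes, and its near-identical neighbour Hspa1a at 6.99 in 2C embryos and 13.1 in oocytes, which share reads.

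All 31 tested rows on chromosome MT were at least 4-fold higher in 2C embryos, with log2 ratios from 2.23 to 8.89 and a median of 4.57. They held 34.7% of the summed signal in 2C embryos and 2.02% in oocytes. The 12S ribosomal RNA row mt-Rnr1 was at 1878480.0 in 2C embryos and 111740.0 in oocytes (log2 ratio 4.07), Cytb, named after its value was seen and part of the cytochrome bc complex, at 933245 in 2C embryos and 79091 in oocytes, and mt-Co3, of cytochrome c oxidase, at 147696 in 2C embryos and 5698 in oocytes. The 18 transfer RNA rows had a median log2 ratio of 4.98 and the 13 other rows one of 4.07. Since the control libraries of both stages come from an earlier study and no value per library is given, stage and any difference in preparation cannot be told apart here. When each column was instead scaled to 1 sum over the genes off chromosome MT, log2 ratios moved up by at most 0.36. With a sum over all tested genes they moved down by at most 0.23. Ratios of genes with a low 2C mean moved by less.

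**Figure D4:**
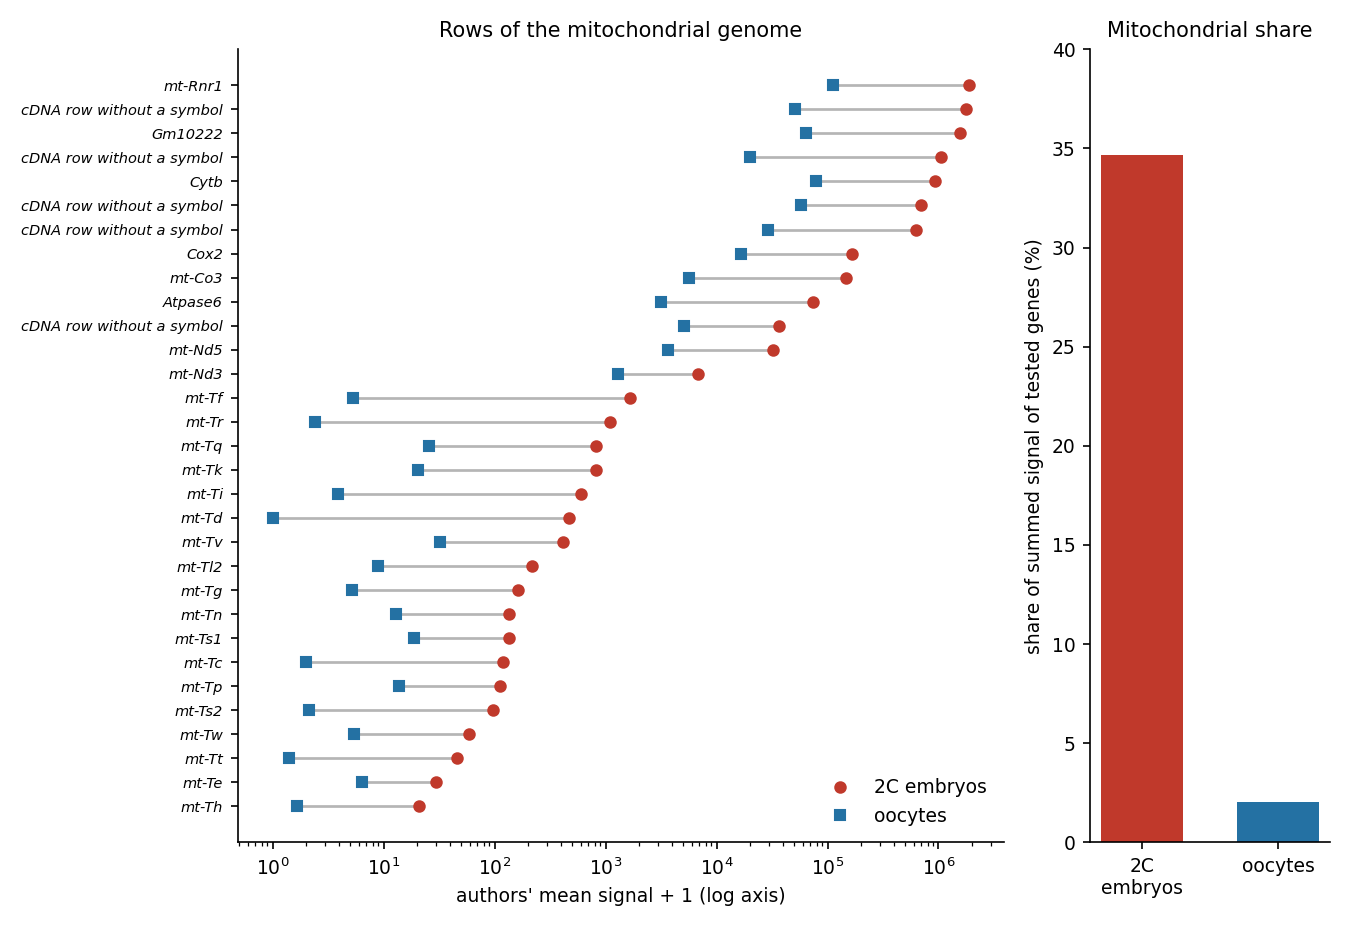
Left, the authors' mean signal + 1 of the 31 tested rows of the mitochondrial genome in control 2C embryos (circles) and control oocytes (squares) on a log axis; right, their share of the summed signal of all tested genes. Every circle lies to the right of its square, and the share was 34.7% in 2C embryos and 2.02% in oocytes.

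Nuclear genes for mitochondria were higher in part and lower in part. Of 74 tested mitochondrial ribosomal protein genes, 25 were higher and 4 lower (33.8% and 5.41%, median log2 ratio 0.97), and of 77 nuclear genes of oxidative phosphorylation 24 were higher and 9 lower (31.2% and 11.7%, median log2 ratio 1.06). The shares over all tested genes were 26.0% and 23.6%. Atp5g3, a rotor subunit of the ATP synthase, was at 834 in 2C embryos and 16.3 in oocytes, and Mrps26 at 1571 in 2C embryos and 27.8 in oocytes. Of complex II, Sdha was at 400.2 in 2C embryos and 2665 in oocytes and Sdhc at 132 in 2C embryos and 1411 in oocytes.

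Genes of glycolysis, pyruvate use and the citric acid cycle lay on both sides. Of 41 tested genes, 9 were higher and 14 lower (34.1%), beside 26.0% higher and 23.6% lower over all tested genes, with a median log2 ratio of -0.88. Ldhb, the heart-type lactate dehydrogenase that is abundant in mouse eggs, was at 1638 in 2C embryos and 32001 in oocytes (log2 ratio -4.29), while the muscle type Ldha was at 251 in 2C embryos and 17 in oocytes (log2 ratio 3.80). Glucose transporters also lay on both sides: Slc2a1 was at 294 in 2C embryos and 1225 in oocytes, and Slc2a3 was at 539 in 2C embryos and listed at 0 in oocytes. Mpc1, a part of the mitochondrial pyruvate carrier, was at 518 in 2C embryos and 8.61 in oocytes. Lower members were Tpi1, of glycolysis, at 27 in 2C embryos and 795 in oocytes, and Dlst, of the 2-oxoglutarate dehydrogenase complex, at 174 in 2C embryos and 2857 in oocytes.

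Of 39 tested genes of meiosis and egg arrest, 7 were higher (17.9%) and 6 lower (15.4%), beside 26.0% and 23.6% over all tested genes, with a median log2 ratio of -0.19 that becomes positive when columns are scaled off chromosome MT. Lower were Mos, the kinase that maintains metaphase arrest, at 98.2 in 2C embryos and 647 in oocytes, and Fbxo43, which inhibits the anaphase-promoting complex in eggs, at 496 in 2C embryos and 4406 in oocytes. Plk1, a mitotic kinase, and the checkpoint kinase Bub1b had log2 ratios of -3.23 and -3.89. Higher were Cdk1 at 4660.1 in 2C embryos and 739 in oocytes, Cdc25c, the phosphatase that activates it, at 2941 in 2C embryos and 157 in oocytes, and Sycp3, of the synaptonemal complex, at 4489.5 in 2C embryos and 226 in oocytes. Ccnb1, cyclin B1, was nearly level at 11809 in 2C embryos and 12566 in oocytes. Of 31 tested cyclin and CDK inhibitor genes, 10 were higher (32.3%, beside 26.0% over all tested genes) and 0 lower (median log2 ratio 1.18), led by Ccne1, cyclin E1, at 3068 in 2C embryos and 33.4 in oocytes (log2 ratio 6.48).

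DNA replication genes were evenly placed. Of 46, 6 were higher and 7 lower (13.0% and 15.2%, median log2 ratio 0.39), beside 26.0% and 23.6% over all tested genes. Gmnn, geminin, was at 3263 in 2C embryos and 388 in oocytes, and Mcm4 and Mcm5, of the replicative helicase, were at 230.1 and 127 in 2C embryos and 5646 and 2317 in oocytes. Of 44 tested rows of replication-dependent histones, 8 were higher and 5 lower (18.2% and 11.4%), and 23 rows were not tested. Their median log2 ratio was 0.31, negative among members with a mean of at least 50. Hist1h2ba, a testis and oocyte H2B, was at 41.5 in 2C embryos and 654 in oocytes.

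Among variant histones and their chaperones, the oocyte linker histone was lower and several H2A variants higher in 2C embryos. Of 24 tested genes, 4 were higher and 8 lower (median log2 ratio -0.44). These are 16.7% and 33.3%, beside 26.0% and 23.6% over all tested genes. H1foo was at 678 in 2C embryos and 17845 in oocytes, and Chaf1a, the large subunit of the chromatin assembly factor, at 517 in 2C embryos and 29172 in oocytes. The higher ones were H2afz at 6395 in 2C embryos and 362 in oocytes, H2afx at 2356 in 2C embryos and 84.1 in oocytes, H2afv at 1317 in 2C embryos and 58.1 in oocytes, and the centromeric histone Cenpa at 2477 in 2C embryos and 239.9 in oocytes. H3f3a and H3f3b, which both encode histone H3.3, had log2 ratios of 0.29 and -1.03.

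Genes of DNA methylation included members with large differences in both directions. Dnmt1, the maintenance methyltransferase, was at 3381 in 2C embryos and 178985 in oocytes (log2 ratio -5.73), on chromosome 9 of GRCm38 from 20907209 to 20959888 on the minus strand. Uhrf1, its cofactor, was at 366 in 2C embryos and 14956 in oocytes. Of the TET dioxygenases, Tet3 was at 5143 in 2C embryos and 57217 in oocytes and Tet1 at 13299.8 in 2C embryos and 186 in oocytes, with log2 ratios of -3.48 and 6.15. Zfp57, which guards imprints, was at 8150.3 in 2C embryos and 58004 in oocytes. In all, 3 of 12 tested genes of this list were higher and 5 lower (median log2 ratio -1.10). These are 25% and 41.7%, and the share of higher genes was near that of all tested genes. Over all tested genes 26.0% were higher and 23.6% lower.

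Histone methylation enzymes were spread widely around a median near 0. Of 33, 7 were higher and 5 lower (21.2% and 15.2%, with 8 lower when columns are scaled to 1 sum), and the median log2 ratio of -0.10 changes sign with the scaling of the columns. The shares over all tested genes were 26.0% and 23.6%. Of the 7 higher members, 4 encode demethylases of the JmjC family and the others, Ehmt2, Setd2 and Suv39h1, methyltransferases. Kdm5b, which removes methyl groups from lysine 4 of histone H3, was at 16463 in 2C embryos and 52.1 in oocytes (log2 ratio 8.28), and its relative Kdm5a at 4979 in 2C embryos and 46.2 in oocytes (log2 ratio 6.72). Kdm4c, which acts on lysine 9, was at 1616 in 2C embryos and 11.9 in oocytes, and Kdm3a at 1836 in 2C embryos and 67.3 in oocytes. Lower members were the demethylase gene Kdm6b at 1886 in 2C embryos and 14904 in oocytes, Setdb1, a lysine 9 methyltransferase, at 1494 in 2C embryos and 9401 in oocytes, and the lysine 4 methyltransferase gene Kmt2b at 72.2 in 2C embryos and 341 in oocytes. Kdm1a itself was nearly level, at 1832 in 2C embryos and 2133 in oocytes.

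Most genes of the transcription and splicing machinery were within 4-fold, with single members far apart. Of 56 genes of RNA polymerase II, its general factors and Mediator, 9 were higher and 4 lower (16.1% and 7.14%, median log2 ratio 0.63), with Med29 at 3828 in 2C embryos and 31.4 in oocytes and Gtf2b at 489.8 in 2C embryos and 7895 in oocytes. Of 47 splicing genes, 9 were higher and 10 lower, near or below the 26.0% and 23.6% of all tested genes, and the median log2 ratio of 0.20 turns negative when both columns are scaled to 1 sum. Snrpb, a core Sm protein, was at 538 in 2C embryos and 4.01 in oocytes, and Snrnp70, of the U1 particle, at 387 in 2C embryos and 6652 in oocytes. In the small RNA pathway 4 of 21 tested genes were higher and 5 lower (23.8%, beside 23.6% over all tested genes, median log2 ratio -0.58). Dicer1 was at 8684 in 2C embryos and 25408 in oocytes and Ago2 at 1981 in 2C embryos and 355 in oocytes, while the PIWI genes lay on opposite sides, with Piwil1 at 18.4 in 2C embryos and 630.5 in oocytes and Piwil2 at 1721 in 2C embryos and 34.4 in oocytes.

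By chromosome, the median log2 ratio per autosome ran from -0.32 on chromosome 6 to 0.29 on chromosome 2. On chromosome X, of 536 tested genes 28.0% were higher and 18.5% lower (median 0.24), beside 26.0% and 23.6% over all tested genes. Among chromosomes with at least 100 tested genes, the largest share of higher genes was 30.2% of 1098 on chromosome 11 and the largest share of lower genes 30.4% of 506 on chromosome 15. Of 12608 tested genes with 1 position in the annotation, runs of at least 6 neighbours past 4-fold in 1 direction occurred 12 times for higher and 8 times for lower genes. Rows that were not tested or had no single position were passed over, so other genes can lie between the members of a run. The first to name is the Tdpoz cluster on chromosome 3 from 93651542 to 94178193 of GRCm38, with 9 genes in a row and log2 ratios up to 9.15. Another is the Trim43 cluster on chromosome 9 from 88580891 to 89092835, with 6 rows from 4.16 to 10.71. On the lower side, 6 Fbxw genes and Plxnb1 stand in a row on chromosome 9 from 109095389 to 109404296, with log2 ratios from -4.24 to -2.19, and 12 genes from Bin2 to Csad on chromosome 15 from 100641077 to 102204724, with ratios from -7.65 to -2.22. A run of 17 higher rows on chromosome 11 from 60560924 to 60693075 holds no protein-coding gene. Neighbouring copies of a family share reads, so the rows of such a run are not independent.

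The classes also differed in annotated features that played no part in their definition. The median coding length was 1227 nt for higher genes, 1502 nt for lower genes and 1521 nt for genes within 4-fold, with 2473, 2630 and 5760 genes matched. It was 1128 nt for genes at least 64-fold higher. The annotated 3′ untranslated region was shorter at both ends: its median was 765 nt for genes at least 64-fold higher, 675 nt for genes at least 64-fold lower and 1078 nt for genes within 2-fold. The share of G and C at the third codon position followed the opposite course, with medians of 63.1%, 64.8% and 56.5% in the same 3 groups. In promoters, the ratio of observed to expected CpG was lowest at the ends of the range as well, with medians of 0.63 for genes at least 64-fold higher and 0.53 for genes at least 64-fold lower, against 0.78 for genes within 2-fold. The ETS site CCGGAAGT, counted on both strands, was in 6.50% of promoters of higher genes, 4.06% of lower genes, 7.11% of genes within 4-fold and 2.92% of all RefSeq promoters. For the early 2C genes the median CpG ratio of 17 promoters was 0.10, and for ribosomal protein genes that of 62 promoters was 0.82. These features vary with each other and with expression level, for which no adjustment was made.

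**Figure D5:**
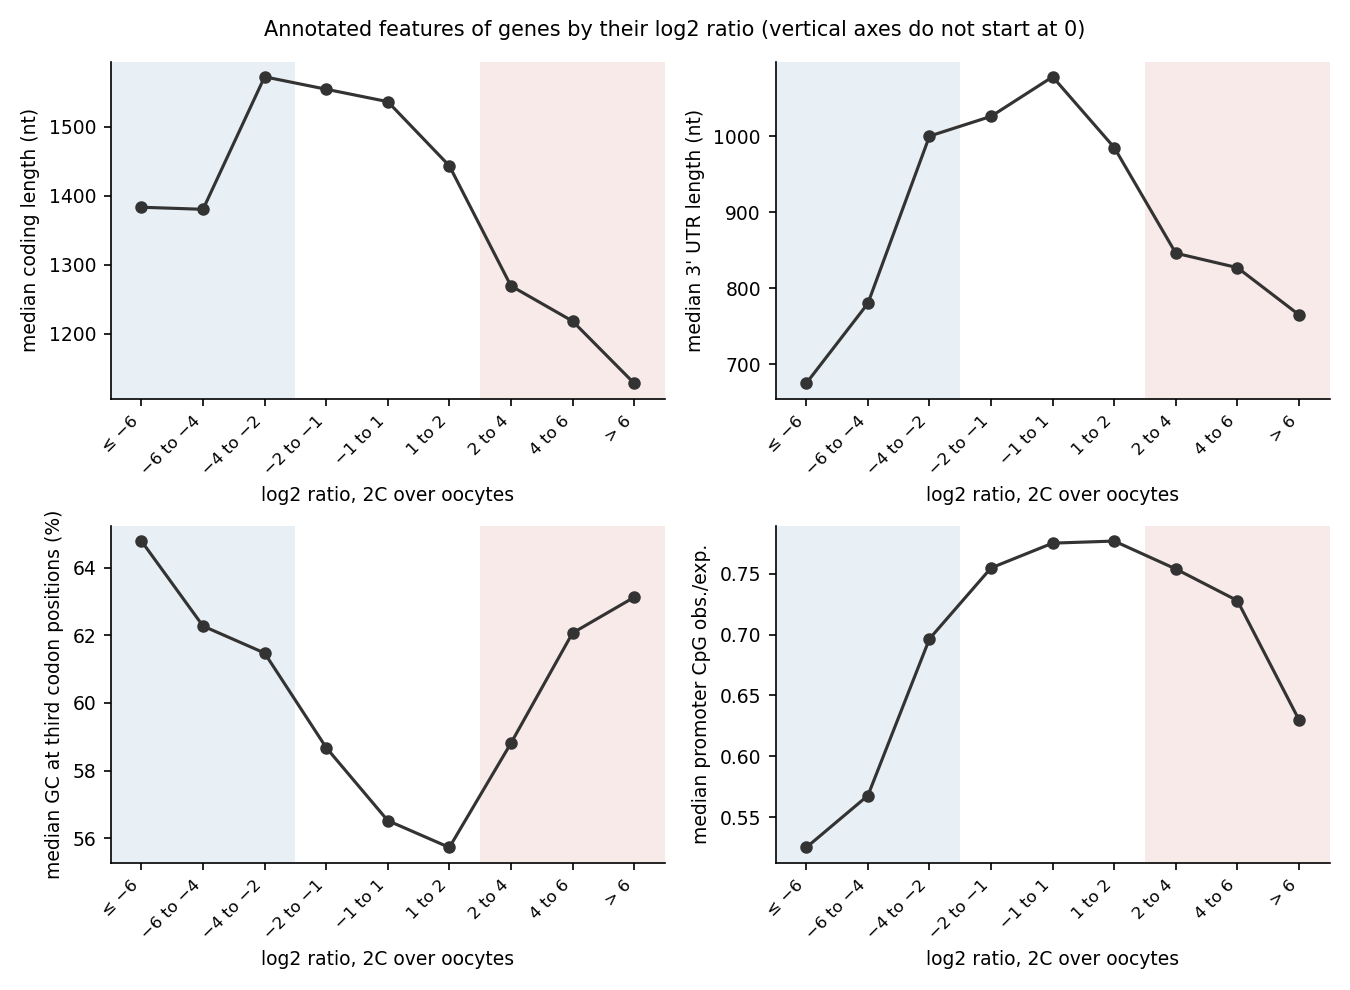
Medians of 4 annotated features over tested genes in 9 bins of the log2 ratio, from the lowest ratios at the left to the highest at the right, with genes at least 4-fold lower in 2C embryos shaded blue and those at least 4-fold higher shaded red. The vertical axes do not start at 0. Coding length is lowest in the right-most bin (1128 nt), and the 3′ untranslated region and the promoter CpG ratio are lower at both ends than in the middle bin (1078 nt and 0.78).

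Markers of other cells were few and uneven. Of 18 rows of cumulus and granulosa markers, 8 were listed at 0 in 2C embryos and 7 in oocytes, and 3 reached a mean of 50 in 2C embryos and 1 in oocytes. The mean was higher in 2C embryos for 6 of the 18 and higher in oocytes for 7, and 5, Amh, Foxl2, Ptx3, Pgr and Hsd17b1, were listed at 0 at both stages. The marker over 50 in oocytes was Cyp19a1, aromatase, at 7.89 in 2C embryos and 2132 in oocytes. On the same side, Fshr, the follicle-stimulating hormone receptor, was listed at 0 in 2C embryos and at 18.1 in oocytes, and Cyp11a1, of steroid synthesis, was listed at 0 in 2C embryos and at 13.8 in oocytes. Amhr2 was at 798 in 2C embryos and listed at 0 in oocytes. The summed signal of the 18 rows was 1271 in 2C embryos and 2224 in oocytes. The summed shares of 7 blood, 9 oviduct and 12 sperm marker rows were at most 0.0138% at either stage, the highest being the oviduct list in 2C embryos, which Epcam dominated, at 3286 in 2C embryos and 399.8 in oocytes. Ovgp1, oviductal glycoprotein, was at 221 in 2C embryos and listed at 0 in oocytes, and Foxj1, of ciliated cells, at 14.9 in 2C embryos and listed at 0 in oocytes, while Pax8 was listed at 0 at both. Only 4, 1, 2 and 2 of these marker rows were tested. Their part in other results was not tested.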

How the data were processed

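RNA had been sequenced from control oocytes and control 2C embryos. Random hexamer and oligo-dT priming is given for the mutant libraries of the series, and was not given in the sources used here for these controls. The deposited signal values are the authors' median-normalized read numbers per gene: first mates were trimmed to 50 bp, low-quality reads were dropped, and alignment was done with BBMap against mm10 genes and repeats at 95% identity, with each read on several loci weighted by the inverse square of their number. Cufflinks and DESeq stand in the processing notes of the submitters too, and their versions were not given in the sources used here. The paper states that genes under 10 raw reads in all conditions were not tested. Yet the untested rows include 788 with a mean of at least 50 at either stage. Of these, 576 were at least 4-fold higher in 2C embryos, 118 lower and 94 within 4-fold. Raw reads per gene were not available here, so whether the stated rule accounts for these rows was not tested. The authors' deposited fold change, p-value, q-value and significance columns hold their own comparison and were not used. The deposited table gives 2 group means per gene, so depth and replicate error are unknown, and 0 columns of per-sample values were left unused.

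From these means the log2 of (2C mean + 1) over (oocyte mean + 1) was computed for the 14208 tested genes (Python 3.11.15, pandas 2.3.3, numpy 2.4.6, scipy 1.17.1, matplotlib 3.10.9), with a 4-fold bound, and the script was tested on simulated data. The members and gene lists were chosen with earlier results of these data known. Named genes were the 15 genes per direction with the most extreme ratios, where the higher mean reached 200 and the symbol was an established name found once, the key members of 36 gene lists, and up to 4 further extreme members per list and direction under the same minimum. A few genes that the rule picked are not reported here. Cytb, Gm4981, Nlrp9a, Pramel6, Rpl4, Rpl41, Spin1, Spz1, Tdpoz2, Trim43a, Usp17lb, Zbed3, Cct5, Ooep, Ehmt2, Setd2, Suv39h1, further marker genes and members of runs were named beside that rule after their values were seen, as were the untested rows. Positions and transcripts came from GENCODE for GRCm38, matched by symbol for 10863 genes with a coding transcript, and promoters from RefSeq GRCm38.p6 for 8873 genes. Alternatives were other pseudocounts, bounds, filters and scalings.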

Additional observations from a re-analysis of the deposited data

How the results depend on the processing

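No paired analysis was possible because the table holds 1 mean per group, and for the same reason no replicate could be left out. The count of higher genes was 3692 as reported and 6121 over all rows with a mean above 0, and that of lower genes 3354 as reported, 5126 at a 2-fold bound and 2050 at an 8-fold bound. Under the other alternatives both counts stayed within 1.5 times the reported ones, for example 3001 higher and 2686 lower with a pseudocount of 10, and 3436 higher and 3720 lower with each column scaled to the same sum. Scaling to the same sum off chromosome MT, which was chosen after seeing the data, gave 4152 higher and 2828 lower. Among list medians, use of all rows with a mean above 0 gave log2 ratios of -2.79 for the egg coat, -2.11 for oocyte transcription factors, 5.14 for early 2C genes, -0.25 for glycolysis and the citric acid cycle, 0.0352 for histone methylation enzymes and -0.92 for cumulus markers. A pseudocount of 10 gave 3.48 for early 2C genes and 3.02 for cumulus markers, and a pseudocount of 0.1 gave 6.90 for early 2C genes. The medians near 0 changed sign with scaling or filter: 0.17 for meiosis and 0.26 for histone methylation enzymes when scaled off chromosome MT, -0.0238 for splicing when scaled to the same sum, and -0.58 for replication-dependent histones with a mean of at least 50. Some counts of list members past 4-fold also moved by over 1.5 times. With all rows, 1 egg coat gene and 2 oocyte transcription factors were higher, and 1 cyclin and 4 cumulus markers lower. Scaling off chromosome MT gave 5 oocyte transcription factors and 2 aminoacyl-tRNA synthetases lower and 13 proteasome genes higher. Scaling to the same sum gave 5 ribosome biogenesis, 2 heat shock and 8 histone methylation genes lower, and the minimum mean of 50 gave 4 replication-dependent histones higher. The changes of sign follow from scalings that move the ratios in 1 direction, or from the rows left in. Of 288 named genes, 0 of those past 4-fold changed sign under the alternatives run for them, which could not change it. A pseudocount keeps the sign of a ratio, and the scalings moved log2 ratios by at most 0.36. With a pseudocount of 10, 67 of the 288 differed by more than 1.5-fold. Without values per library, how much of any ratio is library error cannot be given.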

Other observations

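Rows that the authors did not test include 788 with a mean of at least 50 at 1 stage or both, of which 576 were at least 4-fold higher in 2C embryos, 118 lower and 94 within 4-fold. Among them, Cln8, an endoplasmic reticulum protein, was at 1096 in 2C embryos and listed at 0 in oocytes, Glod5 was at 675 in 2C embryos and listed at 0 in oocytes, and Rfpl4b was at 354 in 2C embryos and listed at 0 in oocytes. These 3 rows were picked after their values were seen, and they stand outside all counts of the report.

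Small noncoding rows lay on both sides, in numbers too small to read against the 26.0% higher and 23.6% lower over all tested genes. Of 14 tested small nucleolar RNA rows, 5 were at least 4-fold higher in 2C embryos and 7 lower (median log2 ratio -2.67), and of 7 tested small Cajal body RNA rows 1 was higher and 4 were lower (median log2 ratio -2.98). Long intergenic noncoding RNA rows numbered 254, with 86 higher (33.9%) and 78 lower (30.7%), against 22.7% and 24.2% of 10847 protein-coding genes. These biotypes were chosen after their values were seen.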
